A study of Mus musculus with 11 samples.

Results

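The GABA-A receptor subunit genes examined here are 4 alpha genes (Gabra2, Gabra3, Gabra4 and Gabra5), 2 gamma genes (Gabrg1 and Gabrg3) and the delta gene Gabrd. They were found as probe sets carrying a single annotated symbol among these names, and each of the 7 genes was read by 1 probe set, out of 35556 probe sets and 19938 genes with a single symbol in all. The arrays held nucleus accumbens RNA, enriched in the shell, from 11 male mice aged 4 to 5 months. They comprised 6 wild-type (WT) mice and 5 RARβ-null mutant littermates (Rarb-null), which lack retinoic acid receptor beta from the germ line on. All mice were raised from heterozygous crosses on a mixed background of C57BL/6J and 129SvEms/j, had not been tested behaviourally and each gave 1 array. The sources used here do not give the deleted part of Rarb, and a constitutive null does not separate the adult loss of the receptor from its loss during development.

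GABA-A receptors are chloride channels that are assembled from several subunits and open when GABA binds, and they carry most fast inhibition in the brain. Most hold a pair of alpha and a pair of beta subunits together with a gamma or a delta subunit, and the alpha and gamma or delta subunits set the affinity for GABA, the response to benzodiazepines and neurosteroids, and the place of the receptor in the membrane. In the striatum the principal cells are themselves GABAergic projection neurons, which receive GABA from one another and from interneurons. Receptors with alpha2 lie mainly at synapses, those with alpha5 mainly outside them, and those that combine alpha4 with delta give a tonic current and respond strongly to neurosteroids. Alpha3 is found in monoaminergic and cortical neurons among others, and gamma1 and gamma3 are less common alternatives to the main synaptic gamma subunit.

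Except for Gabrd, these genes lie in the clusters in which GABA-A subunit genes are usually found. In the RefSeq gene order Gabrg1 and Gabra2 are adjacent on chromosome 5, followed after 1 further protein-coding gene by Gabra4 and, directly after it, by the beta subunit gene Gabrb1. Gabrg3 and Gabra5 are adjacent on chromosome 7. Gabra3 lies on the X chromosome between Gabre, with 1 protein-coding gene in between, and Gabrq. Gabrd lies on chromosome 4 apart from the others, and none of the 7 genes is on chromosome 14, which carries Rarb.

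Gabra5 and Gabrg3, the neighbours on chromosome 7, were the members that differed most clearly between genotypes, in opposite directions, and their promoter windows are shown for that reason. Of the 7 genes, 6 had an entry in the RefSeq promoter table (GRCm38.p6), which spans 250 bases before the transcription start and 50 bases after it. Capitals mark each match to 1 of 4 half-sites of the kind that retinoic acid receptors bind, searched on both strands. The first is AGGTCA. The second, GGGTCA, differs from it in the first letter. The third is AGTTCA. The fourth is GGTTCA. Any position matches at most 1 of them on a strand, and matches at different positions may overlap. The Gabra5 window is chr7:57510010-57510309 and the Gabrg3 window is chr7:57387166-57387465, both on the minus strand and printed 5′ to 3′.
Gabra5: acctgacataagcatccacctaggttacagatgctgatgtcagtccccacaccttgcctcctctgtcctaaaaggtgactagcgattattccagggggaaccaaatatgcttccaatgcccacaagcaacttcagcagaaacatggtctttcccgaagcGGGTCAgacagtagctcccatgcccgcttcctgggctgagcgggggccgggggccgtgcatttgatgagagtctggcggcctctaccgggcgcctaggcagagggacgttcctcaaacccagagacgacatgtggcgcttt
Gabrg3: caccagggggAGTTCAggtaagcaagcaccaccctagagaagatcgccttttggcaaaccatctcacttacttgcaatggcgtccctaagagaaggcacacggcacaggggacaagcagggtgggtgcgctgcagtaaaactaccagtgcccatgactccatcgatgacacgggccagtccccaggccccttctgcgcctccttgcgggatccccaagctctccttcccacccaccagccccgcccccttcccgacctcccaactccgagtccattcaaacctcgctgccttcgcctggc
The Gabra5 window held GGGTCA at position -91 from the start and the Gabrg3 window held AGTTCA at position -240. Among all 32851 promoter windows of this length, 43.7% held at least 1 of the 4 half-sites, 13.7% held GGGTCA and 14.0% held AGTTCA. No window of a member held a direct repeat of any of these half-sites with a spacing of 1, 2 or 5 bases, the arrangement of known retinoic acid response elements. Such repeats were present in 0.222%, 0.268% and 0.0974% of all windows. The windows of Gabra2, Gabra4 and Gabrg1 held no half-site. Both windows listed for Gabra3 overlap and held the same 2, where 13.1% of all windows held 2 or more. These matches describe letters in a short window only.

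Values are on a log2 scale as robust multi-array analysis (RMA) gave them, and differences are Rarb-null minus WT means with the standard error (SE) of a limma fit over 11963 genes. Genes counted as called when the Benjamini-Hochberg adjusted p over all of them was below 0.05. Levels of different genes are not compared, since each probe set has its own response. Rarb itself read 11.70 to 11.81 in the 6 WT arrays and 9.72 to 10.01 in the 5 Rarb-null arrays, so every array matched its label. Known markers of projection neurons were strongly detected (mean of 12 genes 11.89 to 11.97 in WT and 11.60 to 11.74 in Rarb-null arrays). Of these 12, 8 fell and 0 rose. Of 6 cortical neuron markers tested 2 rose and 0 fell, and the mean over the 7 measured was 7.50 to 8.45 in WT against 8.21 to 9.03 in Rarb-null arrays. Array medians over all probe sets were 7.02 to 7.06 in WT and 7.08 to 7.11 in Rarb-null arrays.

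All 7 subunit genes passed the filter on dim genes, which removed the lower 40% of genes by mean level (up to log2 6.99). Gabra5 rose, Gabrg3 fell, Gabra4 fell by a small amount, and Gabra2, Gabra3, Gabrg1 and Gabrd did not pass the test. That is 1 gene higher and 2 lower among 7, where 7.56% of all genes tested were called higher and 12% lower (19.6% in either direction). The levels of the genotypes did not overlap for 2 of the 7 genes, Gabra5 and Gabrg3, against 11.2% of all genes tested. The median difference over the 7 was 0.034, against -0.017 over all genes tested. These are too few genes to set their share apart from that background.

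**Figure D1:**
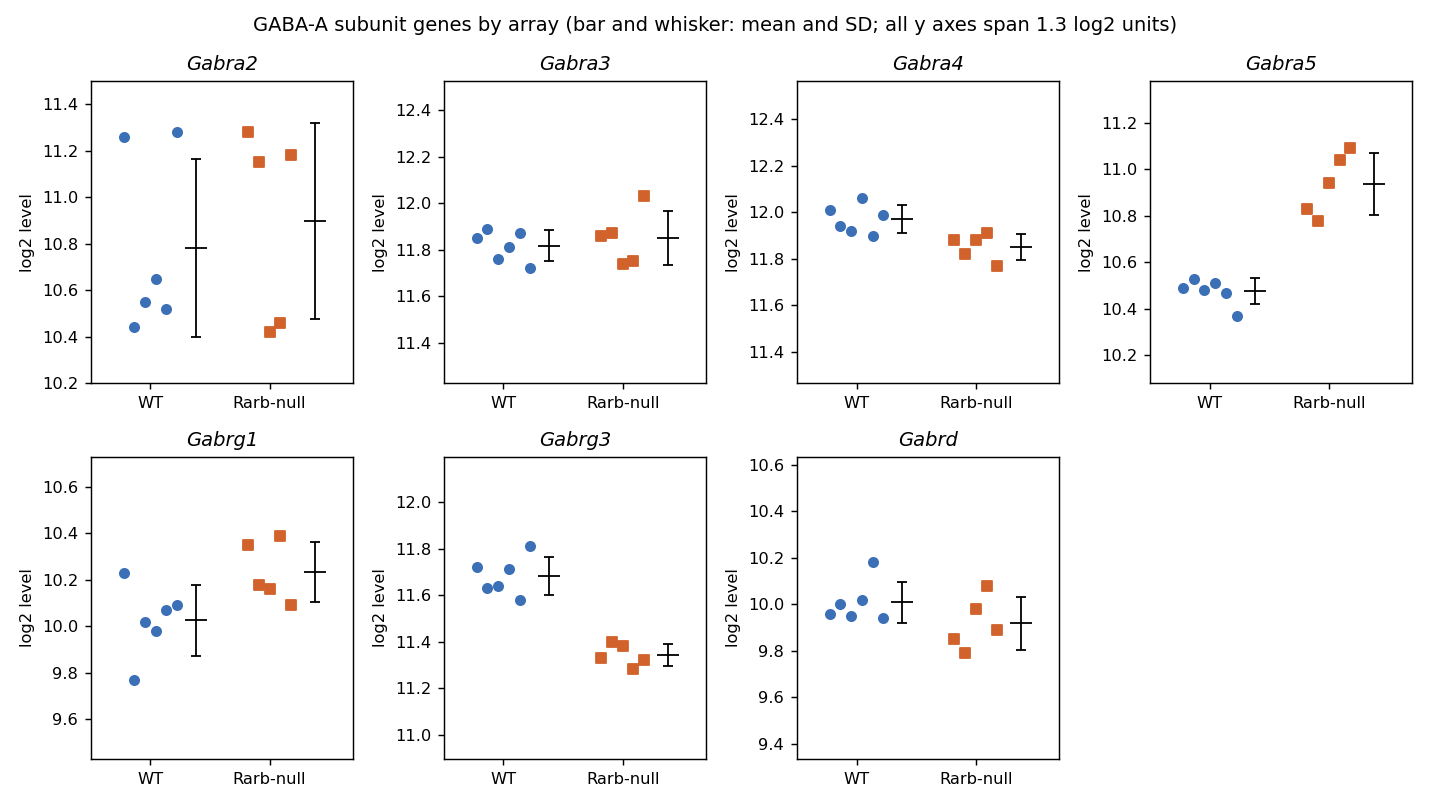
Log2 RMA level of each subunit gene in each array (blue circles, 6 WT mice; orange squares, 5 Rarb-null mice), with the group mean and SD to the right of the points. Gabra5 and Gabrg3 separate by genotype, and Gabra2 forms a high and a low set of arrays within both genotypes.

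Gabra5 encodes alpha5, the subunit of extrasynaptic receptors known best from the hippocampus. It read 10.37, 10.47, 10.48, 10.49, 10.51 and 10.53 in the WT arrays. The Rarb-null arrays read 10.78, 10.83, 10.94, 11.04 and 11.09. Every null array thus lay above every WT array, with a gap of 0.24 between the groups, and the null arrays were more spread out than the WT arrays. The means were 10.47 ± 0.06 (SD, n = 6) and 10.94 ± 0.13 (SD, n = 5). The difference was 0.46 (SE 0.055; limma Benjamini-Hochberg adjusted p = 7.59e-05), a 1.38-fold rise. A two-sided exact permutation test gave p = 0.00216, the lowest p possible with 462 ways to split the arrays. In tissue of mixed cells, more cells of a type and more RNA per cell cannot be told apart. With the mean level of the cortical markers in the model the rise was 0.41 (SE 0.070, adjusted p = 0.00217), and with that of the oligodendrocyte markers it was 0.39 (SE 0.063, adjusted p = 0.00211).

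The other alpha genes did not follow Gabra5. Gabra4, whose alpha4 subunit pairs with delta in tonic receptors and is abundant in the striatum, read 11.90 to 12.06 in WT arrays (median 11.96). In Rarb-null arrays it read 11.77, 11.82, 11.88, 11.88 and 11.91. The highest null array lay just above the lowest WT array, so the groups overlapped. The fall was 0.12 on the log2 scale (SE 0.038; limma Benjamini-Hochberg adjusted p = 0.0473; exact permutation p = 0.00866), or 1.08-fold, close to the threshold. The call was lost in 13 of 24 alternative analyses without a change of direction, and with the projection neuron marker level as a covariate the difference turned to 0.081 (adjusted p = 0.789). In the cortical marker model the difference was -0.06 (SE 0.045, adjusted p = 0.414). Arrays were also centred by subtracting their median level over the genes tested, not over all probe sets. The Gabra4 difference was then -0.08 (limma adjusted p = 0.179). The call was also lost when WT replicate 1, 4 or 6 was left out, or any Rarb-null array but replicate 4 (-0.12 to -0.09, adjusted p 0.0549 to 0.106).

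Gabra3 encodes alpha3. It read 11.72 to 11.89 in WT arrays (median 11.83) and 11.74, 11.75, 11.86, 11.87 and 12.03 in Rarb-null arrays. The WT range was almost wholly contained in the null range, and the highest value came from Rarb-null replicate 5. That array also had the highest cortical (9.03), interneuron (9.11) and lateral septum (7.75) marker levels and the lowest projection neuron marker level (11.60). The difference was 0.03 (SE 0.052, limma adjusted p = 0.676), with a 95% interval from -0.08 to 0.15, so a change as large as that of Gabra5 lay outside the interval. The difference was -0.06 in the cortical marker model (adjusted p = 0.495).

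Gabra2 encodes alpha2, the alpha subunit of many synaptic receptors on projection neurons. Its arrays fell into 2 separate sets that cut across the genotypes. WT replicates 1 and 6 read 11.26 and 11.28, and the other 4 WT arrays read 10.44 to 10.65. Rarb-null replicates 1, 2 and 5 read 11.28, 11.15 and 11.18, while replicates 3 and 4 read 10.42 and 10.46. No array lay in the gap of 0.50 between 10.65 and 11.15, which took up 0.581 of the whole range. The SD within genotypes was 0.40, against a median of 0.074 over all genes tested, and only 26 of 11963 genes had a larger one. Its 2 sets of arrays leave the genotype difference poorly measured, at 0.12 (SE 0.201; limma adjusted p = 0.716; 95% interval -0.32 to 0.55). The interval contains a rise of the size seen in Gabra5, so a change that large was not excluded here. The labels describe a mixed strain background and give no allele or litter for single mice.

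Of the gamma genes, Gabrg3 had the second clear difference. It read 11.58, 11.63, 11.64, 11.71, 11.72 and 11.81 in WT arrays. The Rarb-null arrays read 11.28, 11.32, 11.33, 11.38 and 11.40. All null arrays lay below all WT arrays, with a gap of 0.18. The means were 11.68 ± 0.08 (SD, n = 6) and 11.34 ± 0.05 (SD, n = 5), and the fall was 0.34 on the log2 scale (SE 0.041; limma Benjamini-Hochberg adjusted p = 8.44e-05), or 1.27-fold. The exact permutation p was again 0.00216. The difference was -0.31 in the cortical marker model (SE 0.053, adjusted p = 0.00244) and -0.30 in the oligodendrocyte marker model (SE 0.050, adjusted p = 0.00247). Of the 12 projection neuron markers 8 also fell. Within genotypes the r of Gabrg3 with their mean level was -0.068 (deviations from the genotype means over 11 arrays). For Gabra3, Gabra4, Gabra5, Gabrg1 and Gabrd the same r was -0.699, 0.675, -0.11, 0.127 and 0.383. The marker level was 11.89 to 11.97 in WT and 11.60 to 11.74 in Rarb-null arrays. An r within genotypes does not test the part of that level in the genotype difference. That marker level did not overlap between genotypes, and with it as a covariate the SE of the Gabrg3 difference went from 0.041 to 0.123 and no member was called (Gabrg3 -0.36, adjusted p = 0.228; Gabra5 0.41, adjusted p = 0.325). Over all genes that model left 131 calls.

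Gabrg1 encodes gamma1, a subunit that lowers the response to benzodiazepines. WT arrays read 9.77 to 10.23 (median 10.05), with replicate 2 lowest and replicate 1 highest. Rarb-null arrays read 10.09, 10.16, 10.18, 10.35 and 10.39. The groups overlapped, through WT replicate 1. The difference was 0.20 (SE 0.075) and did not pass the test (limma adjusted p = 0.071; exact permutation p = 0.0433). It did pass in 7 of 24 alternatives, among them the centred arrays (0.24, adjusted p = 0.0276) and the cortical marker model (0.31, adjusted p = 0.0375), as it did without WT replicate 1 (0.25, adjusted p = 0.037). Its direction was upward in all 24.

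Gabrd encodes delta, which replaces gamma in tonic receptors. It read 9.94 to 10.18 in WT arrays (median 9.98) and 9.79, 9.85, 9.89, 9.98 and 10.08 in Rarb-null arrays. The groups overlapped. The difference was -0.09 (SE 0.056; limma adjusted p = 0.274), with a 95% interval from -0.21 to 0.03. Gabra4 and Gabrd, whose products assemble together, thus had differences of -0.12 and -0.09, of which the second did not pass the test.

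**Figure D2:**
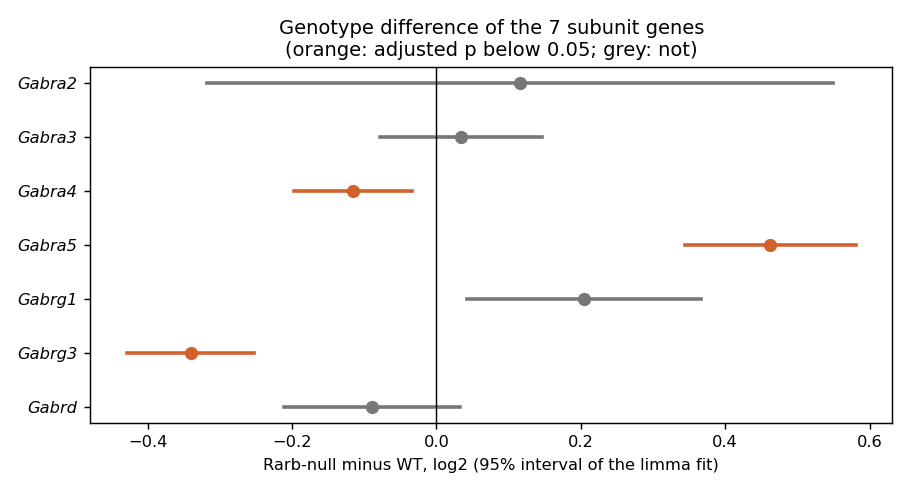
Rarb-null minus WT difference of each subunit gene on the log2 scale with its 95% interval from the limma fit (orange, adjusted p below 0.05; grey, not). Gabra5 stands above 0 and Gabrg3 below it with intervals far from 0, the interval of Gabra4 (-0.20 to -0.03) ends close to it, and that of Gabra2 is the widest.

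A log2 ratio of 2 genes within an array is free of an offset common to the array, though not of a difference in spread. The interquartile range over all probe sets was 3.49 to 3.55 in WT and 3.38 to 3.49 in Rarb-null arrays. With the WT mean set to 0 the ratio shows unequal change. The ratio of Gabra5 to its neighbour Gabrg3 was -0.23 to 0.11 in WT and 0.59 to 0.99 in Rarb-null arrays, a mean shift of 0.80 or 1.74-fold. The ratio of Gabra5 to Gabra4 was -0.12 to 0.09 in WT and 0.44 to 0.82 in Rarb-null arrays, a shift of 0.58. Gabrg3 also fell by more than Gabra4, since the ratio of Gabra4 to Gabrg3 was -0.11 to 0.06 in WT and 0.13 to 0.35 in Rarb-null arrays. None of these ratios overlapped between genotypes. They are given as descriptions with no test, because the pairs were chosen from the differences above.

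**Figure D3:**
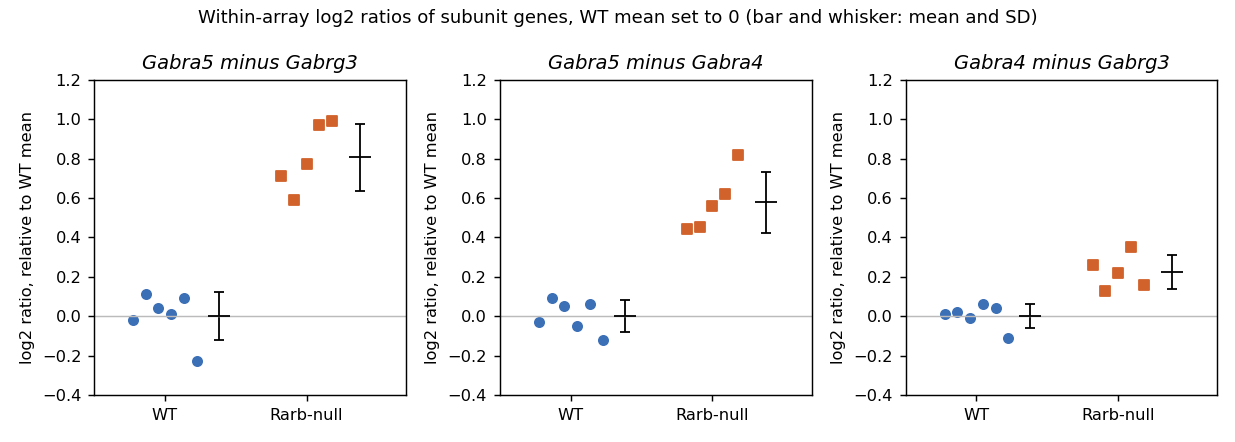
Log2 ratio of 2 subunit genes within each array, with the WT mean set to 0 (blue circles, 6 WT; orange squares, 5 Rarb-null; mean and SD to the right). In each of the 3 panels every Rarb-null array lies above every WT array, most clearly for Gabra5 against Gabrg3.

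As a description of likeness, each member was set against all other genes tested by the Pearson correlation of their deviations from the genotype means over the 11 arrays, which share tissue, dissection and array scale. For Gabra5 the closest genes were Pmm1 (r = 0.965) and Thop1 (r = 0.961), whose own differences were -0.02 and 0.02. For Gabrg3 they were Thumpd2 (r = 0.928) and Eml6 (r = 0.889), and for Gabra4 Glce (r = 0.963) and Opa1 (r = 0.929), a gene of mitochondrial fusion. None of these 6 genes was called. Gabra3 was closest to Pcsk1 (r = 0.966), a prohormone convertase gene that fell by 0.33 (SE 0.077), and to Jdp2 (r = 0.955). Gabrg1 was closest to Gja1 (r = 0.954), the gene of the astrocytic gap junction protein connexin 43, and to Lonrf3 (r = 0.953). With the mean level of the 8 astrocyte markers, Gja1 among them, the r of Gabrg1 was -0.585. Gja1 fell by 0.17 (SE 0.032), whereas the difference of Gabrg1 was 0.20. Gabrd was closest to Mlf2 (r = 0.931) and Hgsnat (r = 0.906), and Hgsnat fell by 0.10 (SE 0.029, limma adjusted p = 0.0274). By the same measure the closest to Gabra2 were Ppp6r3 and Tshz2. No correlation is given for Gabra2, since its arrays form separate sets. Tshz2 fell by 0.55 (SE 0.070, limma adjusted p = 0.000134). Jdp2, Lonrf3, Mlf2 and Ppp6r3 were not called.

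The remaining GABA-A subunit genes were examined to place these members. Of 12 listed, 9 were measured and 2 passed the filter. Gabrb1, the beta subunit gene beside Gabra4, read 10.38 to 10.61 in WT and 10.58 to 10.70 in Rarb-null arrays. The groups overlapped through WT replicate 6, and the rise was 0.13 (SE 0.040; limma adjusted p = 0.0418). The call held in 10 of 24 alternatives, with no change of direction. It was lost in the cortical marker model and whenever an array other than WT replicate 6 or Rarb-null replicate 2 was left out. The RefSeq models of Gabra4 and Gabrb1 overlap on opposite strands, and the sources used here do not give where their probe sets lie within them. Gabrb2 gave -0.02 (SE 0.029, adjusted p = 0.676).

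Gabre and Gabrq, which encode the epsilon and theta subunits and flank Gabra3 on the X chromosome, lay below the filter and were therefore read from the fit of all 19938 genes, where 6.41% were called higher. Both are known from hypothalamus and brainstem more than from striatum. Gabrq read 6.16 to 6.70 in WT arrays (median 6.45) and 7.13, 7.20, 7.29, 7.32 and 7.33 in Rarb-null arrays. The groups did not overlap. The rise was 0.77 (SE 0.081; limma adjusted p = 3.4e-05), or from 6.48 ± 0.19 (SD, n = 6) to 7.25 ± 0.08 (SD, n = 5), larger than that of Gabra5. Gabre read 5.86 to 6.05 in WT and 6.14 to 6.41 in Rarb-null arrays and rose by 0.36 (SE 0.051; adjusted p = 0.000458). Both calls held in 21 of 22 alternatives run without the filter (0.71 to 0.86 for Gabrq and 0.29 to 0.40 for Gabre). As with Gabra5 and Gabrg3, the exception was the projection neuron marker covariate, with 0.58 for Gabrq (SE 0.236, adjusted p = 0.421) and 0.22 for Gabre (SE 0.146, adjusted p = 0.662). Of 3 lateral septum markers tested 2 rose, and over the 4 measured their mean was 7.29 to 7.45 in WT and 7.43 to 7.75 in Rarb-null arrays; their part in these rises was not tested. Gabra3, between the 2 genes, gave the difference of 0.03 described above. The other 5 dim subunit genes, Gabra6, Gabrp, Gabrr1, Gabrr2 and Gabrr3, were not called, with differences from 0.02 to 0.19.

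**Figure D4:**
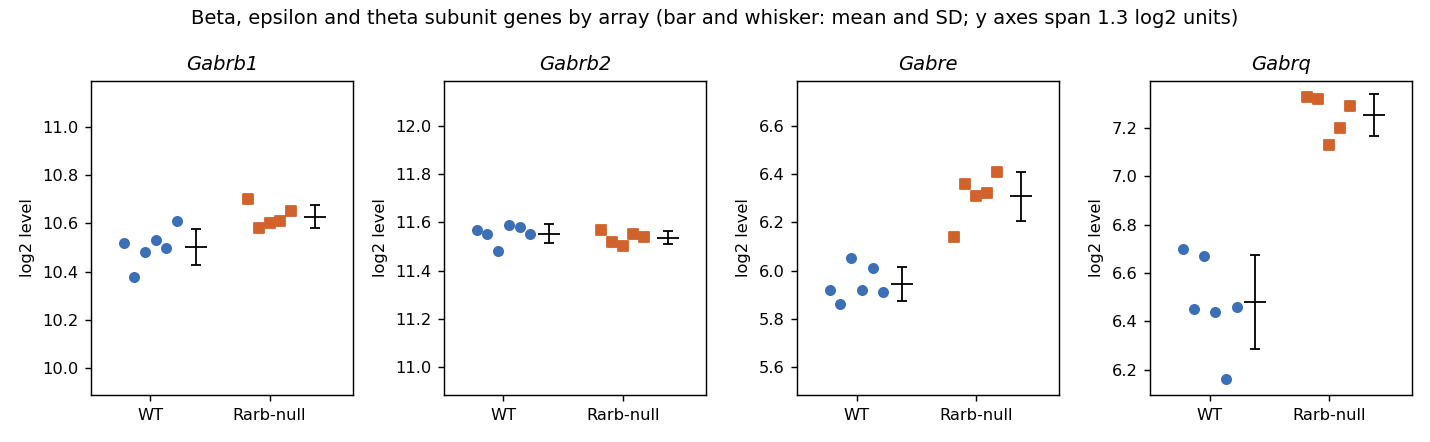
Log2 RMA level in each array of 2 beta subunit genes and of the dim epsilon (Gabre) and theta (Gabrq) genes (blue circles, 6 WT; orange squares, 5 Rarb-null; mean and SD to the right of the points). Gabre and Gabrq separate by genotype, whereas Gabrb1 overlaps through WT replicate 6 and Gabrb2 overlaps throughout.

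Of 22 tested genes that anchor or traffic GABA-A receptors 3 fell and 0 rose, with a median of -0.025. A share of 3 in 22 lies near the 12% called lower over all genes tested. Slitrk3, an adhesion molecule of inhibitory synapses, fell by 0.13 (SE 0.029; limma adjusted p = 0.00871). Gphn, the gene of the scaffold protein gephyrin, fell by 0.12 (SE 0.035; adjusted p = 0.0317), and Plcl2, a gene of receptor trafficking, fell by 0.10 (SE 0.032; adjusted p = 0.0366). Rdx, which encodes radixin, the anchor of alpha5 receptors, gave -0.14 (SE 0.045) and just missed the threshold (adjusted p = 0.0527). The call of Slitrk3 held in 21 of 24 alternatives, that of Gphn in 12 and that of Plcl2 in 9. With arrays centred 3 genes rose and 1 fell. There were 0 falls with the projection neuron covariate and on the 8 arrays that lacked extreme cortical marker levels, 1 with the cortical or oligodendrocyte covariate, with cyclic loess and without WT replicate 1, WT replicate 4 or Rarb-null replicate 2, and 6 with array weights or a trended, robust variance.

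Among 5 genes of chloride balance, which set the force on the current through these receptors, the chloride importer gene Slc12a2 fell by 0.15 (SE 0.046; limma adjusted p = 0.0383) and the exporter gene Slc12a5 gave 0.05 (SE 0.030; adjusted p = 0.219). The call of Slc12a2 held in 8 of 24 alternatives and was lost with centred arrays (adjusted p over the alternatives 0.0205 to 0.323). The other 3, Stk39, Clcn2 and Wnk3, gave 0.04, -0.03 and -0.005 and were not called. Of 4 measured genes of neurosteroid synthesis 1, Tspo, passed the filter and gave 0.02 (adjusted p = 0.796).

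Of 9 tested genes of GABA synthesis, transport, breakdown and GABA-B receptors 5 fell and 0 rose, with a median of -0.18. Over all genes tested 12% were called lower and 7.56% higher. With arrays centred 5 of the 9 fell and 1 rose. Gad2 (-0.28, SE 0.031) and Gad1 (-0.18, SE 0.034) make GABA, Abat (-0.26, SE 0.032) and Aldh5a1 (-0.19, SE 0.032) degrade it, and the GABA transporter gene Slc6a11 gave -0.30 (SE 0.049). Each of these 5 calls held in 23 of 24 alternatives, as did those of Gabra5 and Gabrg3, the exception being the projection neuron covariate. The other 4 were not called, namely the transporter genes Slc6a13 (0.12, adjusted p = 0.212) and Slc32a1 (-0.07, adjusted p = 0.168) and the GABA-B receptor genes Gabbr1 (0.06) and Gabbr2 (0.03). Of 9 tested AMPA and NMDA receptor subunit genes 2 rose (Grin3a, 0.34, SE 0.100, and Gria3, 0.13, SE 0.041) and 2 fell (Grin2c, -0.20, SE 0.058, and Grin2a, -0.18, SE 0.051), with a median of 0.056. These calls were less stable, since Grin3a held in 15 of 24 alternatives and turned to -0.57 (not called) with the projection neuron covariate, Gria3 held in 13 of 24, Grin2a in 17 of 24 and Grin2c in 15 of 23. The count of rises was 0 without Rarb-null replicate 1, 2 or 5, on the 8 arrays named above and with the cortical or projection neuron covariate. The count of falls was 0 without Rarb-null replicate 3 or 4, with arrays centred and with the oligodendrocyte or projection neuron covariate. Whether the members differ from these groups as groups was not tested.

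**Figure D5:**
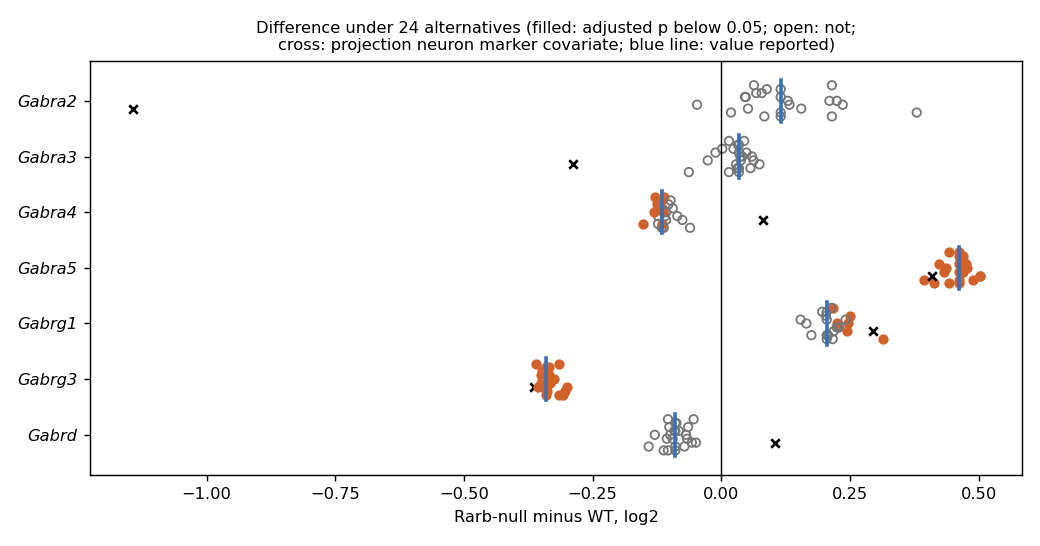
Rarb-null minus WT difference of each subunit gene on the log2 scale in 24 alternative analyses (filled, adjusted p below 0.05; open, not; cross, projection neuron covariate; blue line, reported value). Gabra5 and Gabrg3 keep their direction and, apart from the cross, their call, and the points of Gabra4 and Gabrg1 are a mix of filled and open.

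Markers of other cells moved to different extents beside these genes. Of 8 interneuron markers tested 3 rose (Npy, 0.40, SE 0.071, Calb2, 0.54, SE 0.174, and Th, 0.18, SE 0.056) and 1 fell (Chat, -0.18, SE 0.048). Of 8 astrocyte markers 3 fell (Gja1, Aldh1l1 and Aldoc) and 1 rose (Gfap, 0.27, SE 0.085), and of 7 oligodendrocyte markers 3 fell (Opalin, Mag and Cnp) and 0 rose. Markers of oligodendrocyte precursors (3 genes), microglia (5 genes) and endothelium (4 genes) gave 0 calls in limma. At an unadjusted limma p below 0.05 they gave 3 (Cspg4, Cx3cr1 and C1qa), where 4220 of all 11963 genes tested passed that mark. As a description, over the deviations of the 11 arrays from their genotype means, the mean interneuron marker level had r = 0.613 with Gabra5 and -0.714 with Gabrg3, and the mean astrocyte marker level r = 0.568 and -0.672. These values did not set Gabra5 and Gabrg3 apart from the other members. The interneuron level had r = 0.785 with Gabra3, -0.696 with Gabra4, 0.355 with Gabrd and -0.33 with Gabrg1. The astrocyte level had r = 0.518 with Gabra3, -0.596 with Gabra4, 0.518 with Gabrd and -0.585 with Gabrg1. Gabra2 is left out for its separate sets of arrays. The interneuron level was 8.66 to 8.96 in WT and 8.84 to 9.11 in Rarb-null arrays. The astrocyte level was 10.44 to 10.55 in WT and 10.40 to 10.48 in Rarb-null arrays. No model with these marker levels as covariates was fitted, so their part in the genotype differences was not tested.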

How the data were processed

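Nucleus accumbens was punched (0.5 mm, 3 sections of 300 µm) and total RNA of each mouse (100 ng) was hybridised to Affymetrix Mouse Gene 1.0 ST arrays, per the labels' protocols. Titles and design text give 6 WT and 5 mutant mice and the extraction protocol the reverse; titles were used, and the Rarb level matched them. The authors deposited values normalised by log-scale RMA, per the labels, and the log2 base was inferred from their range (2.62 to 14.2). RMA normalises quantiles and compresses folds of dim probe sets. Software version and annotation are not given in the sources used here. The number of arrays limits the precision.

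Symbols came from the platform annotation through Entrez identifiers (21698 of 21789 single-symbol probe sets matched RefSeq). Each gene took its probe set of highest mean. Genotypes were compared with limma 3.58.1 in R 4.3.3 (no covariates) and two-sided exact permutation tests. On data simulated with independent noise for each gene and array, 100 genes were changed at each of 2 sizes. The test recovered 80% of those given a log2 change of 0.25 and 97% of those given one of 0.5. There were 3 false calls among 11763 unchanged genes. The simulation held no shifts shared by the genes of an array. It also changed a far smaller share of genes than the 19.6% called in the real data. The Benjamini-Hochberg adjustment depends on that share, so these rates may not hold for the real arrays. Members and lists were chosen with earlier results of these data known. Genes were named by a rule: all members, Rarb, up to 4 genes per list by smallest p, the 2 genes most like each member and neighbouring subunit genes. Gad1, Slc6a13, Slc32a1, Gabbr1, Gabbr2, Wnk3, Gabre, Gabrq and the other dim subunits were named after their values were seen. Alternatives were other filters, scalings, variance models and covariates, the mean of probe sets, a replicate block and leaving out arrays.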

Additional observations from a re-analysis of the deposited data

Results flagged for a closer look

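Gabrd read 10.18 in WT replicate 5, above the other 5 WT arrays at 9.94 to 10.02, with a gap to the nearest of 0.67 of the group's range. This was the only such value among the 14 groups of arrays examined (7 genes in 2 genotypes), where chance gives about 1 in 20 groups. The difference of Gabrd did not pass the test with that array or without it.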

How the results depend on the processing

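Gabra5 and Gabrg3 kept direction and call in 23 of 24 alternatives each, with values of 0.39 to 0.50 and -0.36 to -0.30. The exception was the projection neuron marker level as a covariate, which left 0 members higher and 0 lower and 131 genes called in all; Gabra4 changed sign there (0.081, adjusted p = 0.789), and so did Gabra2 (-1.14, adjusted p = 0.333), Gabra3 (-0.29) and Gabrd (0.10), none of them called. In other alternatives Gabra2 changed sign in 1 and Gabra3 in 3, and Gabrd in 0, again with no call. Counts of members moved through Gabra4 and Gabrg1. There were 2 higher and 1 lower with arrays centred, with repeated quantile normalisation, with array weights and with the cortical covariate, 2 higher and 2 lower with cyclic loess, and 1 higher and 1 lower with no filter or on the 8 arrays that lacked extreme cortical marker levels. Leaving out single arrays gave 1 to 2 higher and 1 to 2 lower. Genes called over all numbered 1295 with the cortical covariate, 1369 with the oligodendrocyte covariate, 1342 on those 8 arrays and 1547 to 2576 with single arrays left out. Of all calls 38.7% were higher as deposited and 64.1% after centring. Deviations of same-numbered arrays had correlations of 0.056 to 0.425, all positive, and 3 of 5 WT arrays matched their own number best. The labels give no litter for single mice, so the numbers were not taken as pairs, but pairing was not excluded. The replicate block gave 2872 calls and 2 members higher and 2 lower, with Gabrg1 at 0.22 (adjusted p = 0.0332). Without a filter, the alternatives for Gabre and Gabrq were chosen after seeing the data. Signal over background could not be measured from these values, which limits what can be said of dim genes.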
